A study of Homo sapiens with 6 samples.

Results

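The genes of the apoptotic machinery, made up of the BCL2 family, the caspases with their inhibitors, and the death receptors, were followed in H1299 cells depleted of RBP2. The set held 33 genes, and 19775 genes on the array had a probe set of their own. The 33 genes were taken by gene symbol from the annotation of the array. Each gene was represented by its brightest probe set, that is, the one with the highest mean over all 6 arrays. Of the 33 genes, 31 had at least 1 probe set of their own and 28 were bright enough to be tested (a mean log2 value of at least 4). BIRC3 and BBC3 had no probe set that carried their symbol alone and are not analysed here. BCL2, BCL2A1 and CASP10 were dimmer than the limit and are given as values only.

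H1299 cells come from a human non-small-cell carcinoma of the lung and have no p53. They received lentivirus with RBP2 shRNA 1 (KD1 in the labels), RBP2 shRNA 2 (KD2) or a scramble shRNA (SC), and total RNA was taken 72 hours later. Each of the 3 groups had 2 arrays, and all cells, the scramble cells included, were infected with virus and grown in medium with 10% serum. Nothing in the labels states that the arrays of a group come from separate cultures, so each p-value reflects the spread of these arrays alone, which may be technical. RBP2 is now called KDM5A, an enzyme that removes methyl groups from lysine 4 of histone H3 and a partner of the retinoblastoma protein. The scramble arrays are shared by both comparisons with scramble, so the values of the shRNAs against scramble are not independent of each other.

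Apoptosis is carried out by caspases, proteases that lie dormant in the cell until a signal brings them together. On the mitochondrial route, BH3-only proteins sense stress and either bind the anti-death BCL2 proteins or activate BAX and BAK1, which open the outer mitochondrial membrane; cytochrome c then assembles APAF1 and CASP9 into the apoptosome. On the receptor route, ligands such as TRAIL or FAS ligand cluster death receptors, which recruit FADD and CASP8, while CFLAR blocks that step and XIAP blocks the active caspases.

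KDM5A measured 7.42 and 7.27 on the log2 scale on the shRNA 1 arrays and 6.66 and 6.72 on the shRNA 2 arrays. The scramble arrays read 9.35 and 9.42, so the targeted gene was low on all 4 knockdown arrays. KDM5A was lower with shRNA 2 than with shRNA 1 (shRNA 1 minus shRNA 2 0.65, limma adjusted p = 0.01). These values are those of the brightest of its 5 probe sets. Array medians of the tested genes ran from 8.49 to 8.56. Of the markers of the line, VIM was at least 14.89 on all 6 arrays, KRT18 was at least 12.76 and KRT8 at least 9.80, and KRT7 was dimmer (3.93 to 6.12), while KRT19 and CDH1 stood at the lowest value of the table, 2.24, on every array and EPCAM and NKX2-1 at 2.30 and 2.82. The 5 immune and 4 endothelial markers with a probe set did not exceed 2.34 on any array. Of 5 fibroblast markers COL1A1 alone was above 2.44 (6.20 to 7.02). Among all these markers, KRT8 was called higher with shRNA 1 (0.74, adjusted p = 0.035) and KRT7 higher with shRNA 2 (1.45, adjusted p = 0.044). KRT7 also differed between the shRNAs (-1.33, adjusted p = 0.045). Among 12 mitosis genes, 0 were called with shRNA 1 (median log2 fold change 0.09) and 11 were called lower with shRNA 2 (median -2.89). Among 10 genes of the ATF4 and CHOP stress response, 5 were called lower with shRNA 1 and 8 with shRNA 2. Among 7 tested interferon response genes, 2 were called higher with shRNA 1 and 3 with shRNA 2. MX1, OAS1 and OAS2 of the same list stood at 2.24 on every array and were not tested. Beside these counts, 3.62% of all tested genes were called higher and 7.9% lower with shRNA 1. With shRNA 2 it was 16.7% higher and 14.4% lower.

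The promoters of 4 members are shown because the genes differ in which shRNA lowered or raised them. The windows come from RefSeq (build GRCh38.p14; 250 bases before to 50 bases after the start, on the strand of the gene). The table holds 2 windows each for BAD and CASP2, of which the first listed is shown. Capitals mark CCGCCC or its reverse complement GGGCGG, the letters bound by the ARID domain of KDM5A. PMAIP1 lies at chr18:59899746-59900045 on the plus strand, BAD at chr11:64284655-64284954 on the minus strand, APAF1 at chr12:98645040-98645339 on the plus strand and CASP2 at chr7:143288101-143288400 on the plus strand.
PMAIP1: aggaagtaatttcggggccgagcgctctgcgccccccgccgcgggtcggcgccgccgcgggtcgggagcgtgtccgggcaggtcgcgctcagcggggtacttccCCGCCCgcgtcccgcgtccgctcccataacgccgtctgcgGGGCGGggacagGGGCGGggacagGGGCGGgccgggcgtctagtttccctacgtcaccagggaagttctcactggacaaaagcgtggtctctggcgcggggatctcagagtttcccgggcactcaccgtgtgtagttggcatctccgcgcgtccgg
BAD: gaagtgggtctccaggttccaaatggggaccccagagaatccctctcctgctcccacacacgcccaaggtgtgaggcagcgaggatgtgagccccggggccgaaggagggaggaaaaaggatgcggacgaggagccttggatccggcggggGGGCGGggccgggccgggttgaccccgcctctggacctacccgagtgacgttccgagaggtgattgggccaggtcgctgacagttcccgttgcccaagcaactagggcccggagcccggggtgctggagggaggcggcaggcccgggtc
APAF1: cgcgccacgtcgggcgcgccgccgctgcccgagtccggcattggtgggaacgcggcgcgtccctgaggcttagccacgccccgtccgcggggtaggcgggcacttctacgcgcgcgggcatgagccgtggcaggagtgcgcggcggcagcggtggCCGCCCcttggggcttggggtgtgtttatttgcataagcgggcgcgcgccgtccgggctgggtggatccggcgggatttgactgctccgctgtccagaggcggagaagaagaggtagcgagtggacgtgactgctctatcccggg
CASP2: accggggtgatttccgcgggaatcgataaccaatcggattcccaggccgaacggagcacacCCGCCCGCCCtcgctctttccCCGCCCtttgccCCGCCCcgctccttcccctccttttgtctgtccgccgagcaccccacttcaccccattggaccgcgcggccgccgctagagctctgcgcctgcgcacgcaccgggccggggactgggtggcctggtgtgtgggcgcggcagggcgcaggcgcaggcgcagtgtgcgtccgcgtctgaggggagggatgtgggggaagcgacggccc
PMAIP1 had 4 matches, starting 146, 106, 94 and 82 bases before the start site, and CASP2 had 4, at 189, 185, 168 and 156 bases, of which the first pair overlap. These CASP2 matches are in the window shown, and its second window had 0. BAD had 1 match at 99 bases and APAF1 had 1 at 95 bases. Windows were found for 27 of the 33 genes, 50 windows in all because some genes have several start sites. Some windows of the same gene overlap, as for BID, so a match can be counted more than once. CCGCCC on either strand was in 35 of the 50 windows (70.0%), against 45.0% of all 35116 windows in the table, so the motif is common at promoters in general. The C/EBP-ATF element TGATGNAA, on either strand, was in 2 windows (4.0%), those of HRK and BCL2A1, against 3.62% of all windows. The E2F letters TTTCGCGC and TTTGGCGC were in 0 of the 50, against 0.515% and 0.652% of all. A match is a description of the letters and shows no binding.

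Of the 28 tested genes, 10 were called in at least 1 of 4 limma comparisons at an adjusted p under 0.05 (Benjamini-Hochberg over all 10526 tested genes), and 18 in none. In the mean of both shRNAs against scramble, 0 were higher and 4 lower, BCL2L2, PMAIP1, APAF1 and TNFRSF10B. That is 14.3% of the tested members, beside 12.5% of all tested genes (5.61% higher and 6.92% lower). With shRNA 1, 0 were higher and 3 lower, BCL2L2, BAD and PMAIP1, or 10.7% beside 11.5% of all (3.62% higher and 7.90% lower). With shRNA 2, 1 was higher, BAD, and 4 were lower, APAF1, CASP2, TNFRSF10B and FAS, or 17.9% beside 31.0% of all (16.7% higher and 14.4% lower). Of the members, 9 differed between shRNA 1 and shRNA 2, 5 higher and 4 lower with shRNA 1, or 32.1% beside 41.1% of all (17.8% higher and 23.3% lower). The members' shares were near or below those of all tested genes. 0 members were called in the same direction with both shRNAs, and 1, BAD, was called in opposite directions. The shares of all genes called alike or oppositely with both shRNAs were not computed, so these counts have no comparison.

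Arrays with the same replicate number deviated together, and a fit that took this number as a block called more genes. The mean comparison then had 2 members higher and 7 lower (32.1%, beside 34.9% of all genes, 17.4% higher and 17.5% lower). With shRNA 1 it was 2 higher and 5 lower (25.0%, beside 29.6%, 12.8% higher and 16.8% lower). With shRNA 2 it was 5 higher and 6 lower (39.3%, beside 50.6%, 28.4% higher and 22.2% lower). The direct comparison of the shRNAs had 6 higher and 8 lower (50.0%, beside 57.7%, 25.1% higher and 32.6% lower). With the block, 3 members were called in the same direction with both shRNAs, PMAIP1 lower and BCL2L11 and BIK higher. Here too the share of all genes was not computed, so whether this count is unusual is not known.

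**Figure D1:**
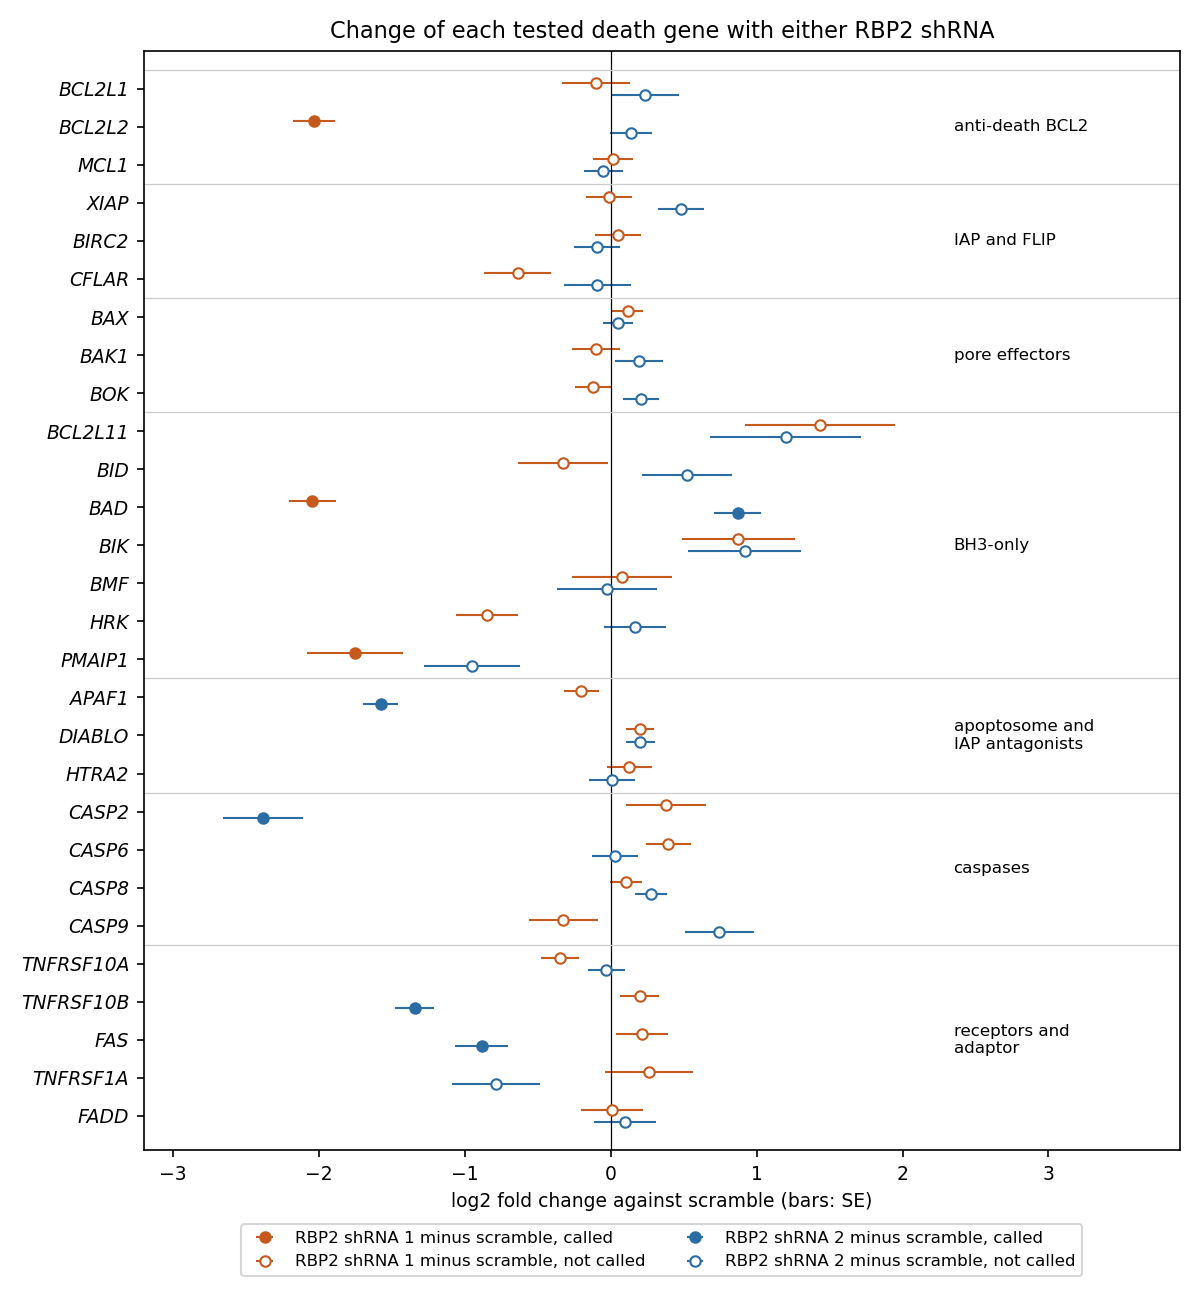
Log2 fold change of each of the 28 tested genes against scramble (horizontal axis) with RBP2 shRNA 1 (orange) and RBP2 shRNA 2 (blue), bars giving the limma SE and filled points an adjusted p under 0.05 in the fit without the block; genes run down the page by role. BCL2L2, BAD, CASP2, APAF1 and TNFRSF10B stand far from 0 with 1 shRNA and on the other side of it, or nearer to it, with the other.

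Among the anti-death BCL2 proteins, which hold BAX and BAK1 in check, 1 of 3 tested genes changed. BCL2L2 (BCL-w, chromosome 14) measured 5.20 and 5.45 on the shRNA 1 arrays and 7.57 and 7.41 on the shRNA 2 arrays, against 7.43 and 7.27 on the scramble arrays. Both shRNA 1 arrays lay below all 4 others, while the shRNA 2 arrays overlapped scramble. BCL2L2 was 4.09-fold lower with shRNA 1 (log2 fold change -2.03 ± 0.14, SE, limma adjusted p = 0.0068). With shRNA 2 the log2 fold change was 0.14, with a 95% interval of -0.23 to 0.50 (adjusted p = 0.50). The shRNAs differed by -2.17 ± 0.14 (4.50-fold lower with shRNA 1 than with shRNA 2, adjusted p = 0.0013), and the mean of both shRNAs was called at -0.95 (adjusted p = 0.020). Leaving out scramble replicate 1 or the other scramble array ended the shRNA 1 call, at log2 fold changes of -1.95 and -2.11. The shRNA 1 call of every other gene ended in these fits too, so this says nothing about BCL2L2 itself. The mean call ended on leaving out any array other than shRNA 1 replicate 1, at log2 fold changes of -1.02 to -0.87. No gene was called in the mean without either shRNA 2 array or either scramble array, so those fits say nothing about BCL2L2 itself. The difference of BCL2L2 between the shRNAs was called in all 6 fits without an array. Its other probe set stood at 2.24 throughout.

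MCL1, the short-lived anti-death protein on which many cancer lines depend, measured 12.25 and 12.47 with shRNA 1 and 12.35 and 12.24 with shRNA 2, against 12.25 and 12.44 in scramble cells. The 3 groups overlapped, and the mean log2 fold change of -0.02 had a 95% interval of -0.32 to 0.28, or a change of at most 1.25-fold. With each shRNA alone the interval reached 1.29-fold (shRNA 1) and 1.32-fold (shRNA 2). The other MCL1 probe sets of mean log2 at least 4 disagree in sign with shRNA 1, at -0.38, 0.35 and -0.34, and none of these passed. The one at 0.35 differed between the shRNAs by 0.41 (adjusted p = 0.048), so the bound is that of the brightest probe set. BCL2L1, the gene of BCL-xL, measured 7.17 and 6.50 with shRNA 1 and 7.17 and 7.17 with shRNA 2, against 6.89 and 6.97 in scramble cells. It passed in no comparison on this probe set. A dimmer probe set of BCL2L1 gave a log2 fold change of 1.53 with shRNA 2 (adjusted p = 0.0062 in a fit over 18763 probe sets) and -0.11 with shRNA 1. The probe sets of BCL2L1 therefore disagree, and no direction is given for the gene. BCL2 itself measured 3.18 to 3.77 and stood at its own lowest value on 4 arrays, and BCL2A1 stood at 2.24 on all 6.

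Inhibitors of caspases and of the receptor complex were not called on their brightest probe sets in any comparison without the block. XIAP, which binds and blocks active caspases, measured 10.79 and 11.00 with shRNA 1 and 11.40 and 11.38 with shRNA 2, against 10.74 and 11.08 in scramble cells. Both shRNA 2 arrays lay above the other 4, and the log2 fold change with shRNA 2 was 0.48 ± 0.16 (adjusted p = 0.075, and 0.028 with the block). XIAP differed between the shRNAs by -0.49 (adjusted p = 0.06, and 0.022 with the block). CFLAR, the decoy of CASP8, measured 8.16 and 7.99 with shRNA 1 and 8.84 and 8.39 with shRNA 2, against 8.94 and 8.48 in scramble cells. Its log2 fold change with shRNA 1 was -0.64 ± 0.23 (adjusted p = 0.14, and 0.021 with the block). CFLAR differed between the shRNAs by -0.55 (adjusted p = 0.12, and 0.014 with the block). Of its 6 other probe sets of mean log2 at least 4, 2 passed on their own with shRNA 1 (-1.05, adjusted p = 0.031, and -0.85, adjusted p = 0.027). These 2 also differed between the shRNAs (-0.81, adjusted p = 0.021, and -0.92, adjusted p = 0.0067). The others gave -0.79, -0.48, -0.01 and 0.12 with shRNA 1 and did not pass, so the probe sets of CFLAR disagree. For BIRC2, a ubiquitin ligase of the receptor complex, shRNA 1 gave 0.05 and shRNA 2 gave -0.09.

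The pore-forming effectors gave values close to scramble. BAX, BAK1 and BOK, which open the outer mitochondrial membrane, had log2 fold changes between -0.12 and 0.12 with shRNA 1 and between 0.05 and 0.20 with shRNA 2. None of the 3 passed with either shRNA, with or without the block (adjusted p from 0.26 to 0.74 without it). The 95% intervals reached 1.30-fold for BAX, 1.44-fold for BAK1 and 1.35-fold for BOK with shRNA 1, and 1.24-fold, 1.53-fold and 1.43-fold with shRNA 2. BAK1 and BOK had opposite signs with the shRNAs.

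The BH3-only genes, the stress sensors of the mitochondrial route, had log2 fold changes from -2.04 to 1.43 with shRNA 1 and from -0.95 to 1.20 with shRNA 2. Of 7 tested, 2 fell with shRNA 1 (BAD and PMAIP1), where 7.9% of all genes were called lower. With shRNA 2, 1 rose (BAD), where 16.7% of all genes were called higher. With the block it was 2 higher and 3 lower with shRNA 1, beside 12.8% and 16.8% of all genes. For shRNA 2 the block gave 4 higher and 1 lower, beside 28.4% and 22.2% of all genes.

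BAD, which neutralises BCL-xL when dephosphorylated, moved in opposite directions. It measured 4.93 and 4.66 on the shRNA 1 arrays and 7.57 and 7.85 on the shRNA 2 arrays, against 6.89 and 6.79 on the scramble arrays. The 3 groups did not overlap, with scramble in between. BAD fell 4.12-fold with shRNA 1 (-2.04 ± 0.16, adjusted p = 0.0076) and rose 1.83-fold with shRNA 2 (0.87 ± 0.16, adjusted p = 0.016). The shRNAs differed by -2.91 ± 0.16 (7.53-fold, adjusted p = 0.0011), the largest difference of the 28 genes, and this was called in all 6 fits that left out an array. A second probe set gave -0.97 with shRNA 1 (adjusted p = 0.030) and 0.99 with shRNA 2 (adjusted p = 0.014). Leaving out scramble replicate 1 or 2 ended the shRNA 1 call, at log2 fold changes of -2.0 and -2.09, as it did for every gene called with shRNA 1. The shRNA 2 call ended on leaving out replicate 1 (0.0639) or 2 (0.0838) of shRNA 2, or replicate 1 (0.0733) or 2 (0.0811) of scramble, at log2 fold changes of 0.73 to 1.01. It also ended with no filter on dim genes (0.87, adjusted p = 0.0748) and with the mean of all probe sets (0.48, adjusted p = 0.101). In the mean of both shRNAs the value was -0.59 (adjusted p = 0.055, and 0.032 with the block), which describes neither shRNA.

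PMAIP1, the gene of NOXA, which binds MCL1, was lower on all 4 knockdown arrays. It measured 9.53 and 8.67 on the shRNA 1 arrays and 10.04 and 9.75 on the shRNA 2 arrays, against 11.07 and 10.63 on the scramble arrays. No group overlapped another, and scramble was highest. PMAIP1 fell 3.37-fold with shRNA 1 (-1.75 ± 0.33, adjusted p = 0.036) and 2.55-fold in the mean of both (-1.35 ± 0.29, adjusted p = 0.045, and 0.0065 with the block). With shRNA 2 the log2 fold change was -0.95 ± 0.33 (adjusted p = 0.085, and 0.0095 with the block). PMAIP1 differed between the shRNAs by -0.80 (adjusted p = 0.11, and 0.013 with the block). The second probe set passed in all 3 comparisons with scramble, at -1.71 with shRNA 1 (adjusted p = 0.027), -1.06 with shRNA 2 (adjusted p = 0.041) and -1.38 in the mean (adjusted p = 0.032). Without the block, the shRNA 1 call ended whichever array was left out, and the mean call ended without any array other than shRNA 1 replicate 1. No gene kept a shRNA 1 call without either scramble array, nor a mean call without either scramble array or either shRNA 2 array. In those comparisons, those fits say nothing about PMAIP1 itself. Over all fits without an array, the log2 fold changes of PMAIP1 stayed between -2.18 and -1.13. ATF4, known to switch on PMAIP1 under stress, was lower too, by -0.62 with shRNA 1 (adjusted p = 0.030) and -1.36 with shRNA 2 (adjusted p = 0.0032), and its part in the PMAIP1 values was not tested.

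BCL2L11, the gene of BIM, a direct activator of BAX and BAK1, had the largest positive log2 fold changes against scramble of the 28 genes with each shRNA. It measured 8.37 and 9.22 on the shRNA 1 arrays and 8.06 and 9.05 on the shRNA 2 arrays, against 6.88 and 7.83 on the scramble arrays. All 4 knockdown arrays were above both scramble arrays, and replicate 2 was above replicate 1 in every group. The log2 fold change was 1.43 ± 0.52 with shRNA 1 (adjusted p = 0.14, and 0.0038 with the block) and 1.20 ± 0.52 with shRNA 2 (adjusted p = 0.14, and 0.0016 with the block). Within replicate numbers the differences from scramble were 1.48 and 1.39 with shRNA 1 and 1.18 and 1.22 with shRNA 2. Of its 3 other probe sets of mean log2 at least 4, all had the same sign but smaller values (0.26 to 0.86 with shRNA 1 and 0.10 to 0.39 with shRNA 2). None passed in the fit of probe sets, which was made without the block. The one at 0.26 read an identical 5.49 on both shRNA 1 arrays and on replicate 2 of shRNA 2 and of scramble.

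BIK, a BH3-only protein of the endoplasmic reticulum, measured 7.16 and 6.89 on the shRNA 1 arrays and 7.58 and 6.55 on the shRNA 2 arrays, against 6.42 and 5.88 on the scramble arrays. All 4 knockdown arrays again lay above both scramble arrays, with shRNA 2 replicate 2 closest to them. The log2 fold changes were 0.87 ± 0.39 with shRNA 1 (adjusted p = 0.21, and 0.036 with the block) and 0.92 ± 0.39 with shRNA 2 (adjusted p = 0.14, and 0.019 with the block). BIK has 1 probe set.

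HRK (chromosome 12), a BH3-only gene best known from neurons, measured 6.40 and 5.89 on the shRNA 1 arrays and 7.16 and 7.16 on the shRNA 2 arrays, against 7.16 and 6.83 on the scramble arrays. Its highest value was identical on 3 arrays. The shRNA 1 arrays lay below the other 4, and the shRNAs differed by -1.02 ± 0.21 (adjusted p = 0.018). Against scramble the log2 fold change with shRNA 1 was -0.85 ± 0.21 (adjusted p = 0.070, and 0.019 with the block). Leaving out replicate 2 of shRNA 1 (adjusted p = 0.053) or either array of shRNA 2 (0.102 and 0.0959) ended the call between the shRNAs. A dimmer probe set read -1.90 for the same difference (adjusted p = 0.012), but there the shRNA 2 arrays were high (1.67 over scramble, adjusted p = 0.023).

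For BID, which links CASP8 to the mitochondria, the values were -0.33 ± 0.31 with shRNA 1 and 0.52 ± 0.31 with shRNA 2 (adjusted p = 0.25, and 0.032 with the block). BID differed between the shRNAs by -0.85 (adjusted p = 0.081, and 0.0065 with the block). BMF, a sensor of cell detachment, measured 4.30 to 5.12 with overlap of all groups and did not pass.

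**Figure D2:**
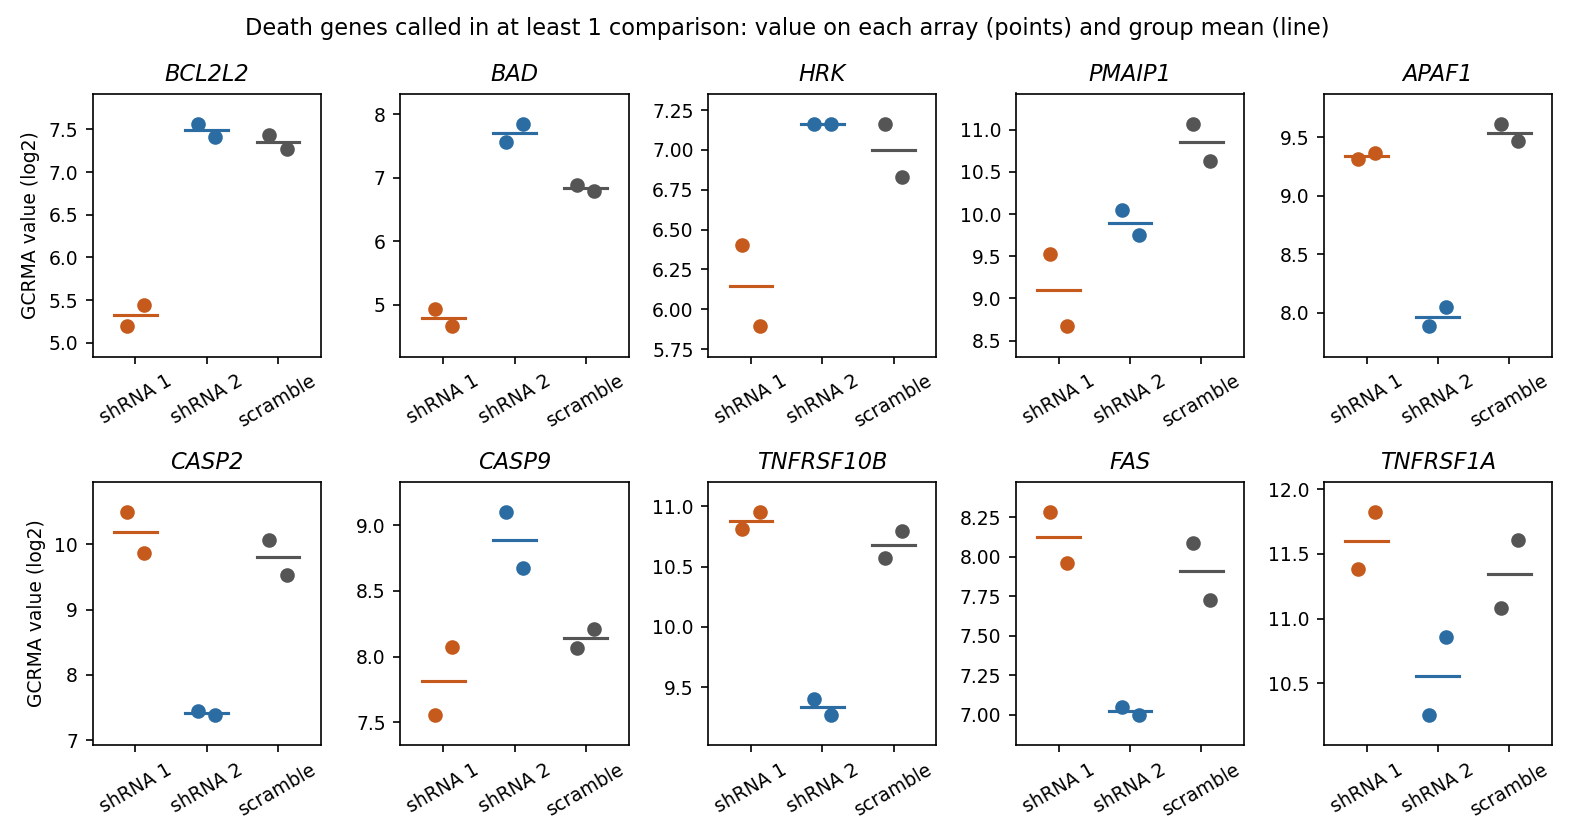
GCRMA value (log2, vertical axis, a separate range for each gene) on each of the 6 arrays for the 10 genes called in at least 1 comparison; points are arrays and lines are group means, in the order RBP2 shRNA 1, RBP2 shRNA 2, scramble. PMAIP1 is below scramble with both shRNAs, BCL2L2 with shRNA 1, and APAF1, CASP2, TNFRSF10B and FAS with shRNA 2.

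Downstream of the mitochondria, APAF1, the scaffold of the apoptosome, fell with shRNA 2. It measured 9.31 and 9.37 on the shRNA 1 arrays and 7.89 and 8.05 on the shRNA 2 arrays, against 9.62 and 9.47 on the scramble arrays. Both shRNA 2 arrays were more than a log2 unit below every other array, and the shRNA 1 arrays lay just below scramble. APAF1 was 2.98-fold lower with shRNA 2 (-1.58 ± 0.12, adjusted p = 0.0032), a call that held whichever array was left out. With shRNA 1 the log2 fold change was -0.20, with a 95% interval of -0.51 to 0.11 (adjusted p = 0.34). The shRNAs differed by 1.37 ± 0.12 (adjusted p = 0.0019). The mean of both shRNAs was -0.89 (adjusted p = 0.017), a call that ended without any array other than shRNA 1 replicate 1. The log2 fold changes were then -0.96 to -0.81. No gene was called in the mean without either shRNA 2 array or either scramble array, so those fits say nothing about APAF1 itself. Its 2 other probe sets were too dim to test, and averaging all 3 gave -0.26 for the mean comparison (adjusted p = 0.0987).

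The antagonists of XIAP that leave the mitochondria, DIABLO and HTRA2, did not pass in the fit of genes with a mean log2 of at least 4. DIABLO measured 11.12 and 11.08 with shRNA 1 and 11.09 and 11.11 with shRNA 2, against 10.90 and 10.90 in scramble cells. All 4 knockdown arrays were above scramble, but the difference was small, at 0.20 ± 0.10 with either shRNA (adjusted p = 0.25 with shRNA 1 and 0.18 with shRNA 2). With no filter on dim genes DIABLO was called higher in the mean of both shRNAs (adjusted p = 0.0433) and with shRNA 2 (adjusted p = 0.028), at the same log2 fold change. HTRA2 had 0.13 with shRNA 1 and 0.01 with shRNA 2.

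Among the caspases, CASP2, an initiator tied to DNA damage and mitotic errors, changed most. It measured 10.49 and 9.88 on the shRNA 1 arrays and 7.45 and 7.39 on the shRNA 2 arrays, against 10.07 and 9.54 on the scramble arrays. Both shRNA 2 arrays were below all others, and shRNA 1 overlapped scramble. CASP2 was 5.21-fold lower with shRNA 2 (-2.38 ± 0.27, adjusted p = 0.0059), whereas with shRNA 1 the value was 0.38 ± 0.27 (adjusted p = 0.43). The shRNAs differed by 2.76 ± 0.27 (6.78-fold, adjusted p = 0.0025), called in all 6 fits without an array. Of its other probe sets, 2 could be tested and gave -3.07 and -2.52 with shRNA 2 (adjusted p = 0.0031 and 0.0094). Leaving out replicate 1 (adjusted p = 0.0591) or 2 (0.0521) of shRNA 2 ended that call on the brightest probe set, at -2.41 and -2.35. In the mean of both shRNAs it had -1.00 (adjusted p = 0.056, and 0.011 with the block).

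CASP9, the initiator caspase of the apoptosome (chromosome 1), measured 7.56 and 8.07 on the shRNA 1 arrays and 9.10 and 8.67 on the shRNA 2 arrays, against 8.07 and 8.21 on the scramble arrays. Both shRNA 2 arrays were the highest of the 6. It was lower with shRNA 1 than with shRNA 2 by -1.07 ± 0.24 (adjusted p = 0.021), while neither shRNA passed against scramble (-0.32 with shRNA 1, adjusted p = 0.43, and 0.74 with shRNA 2, adjusted p = 0.068). A second probe set passed with shRNA 2 (0.85, adjusted p = 0.036). The call between the shRNAs ended on leaving out replicate 1 of shRNA 1 (adjusted p = 0.0756) or either array of shRNA 2 (0.114 and 0.0522).

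CASP8, the initiator of the receptor route, stood at 0.11 with shRNA 1 and 0.28 with shRNA 2, as log2 fold changes, and was not called (adjusted p = 0.59 and 0.12). CASP6, an executioner caspase, had 0.40 with shRNA 1 and 0.03 with shRNA 2 (adjusted p = 0.17 and 0.90), and differed between the shRNAs with the block alone (0.36, adjusted p = 0.041). CASP10, a relative of CASP8, stood between 2.24 and 2.29 on all arrays.

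Of 5 tested genes, the receptors and their adaptor FADD, 2 fell with shRNA 2 (14.4% of all genes were called lower) and 0 were called with shRNA 1. TNFRSF10B (DR5, a TRAIL receptor) measured 10.81 and 10.95 on the shRNA 1 arrays and 9.40 and 9.27 on the shRNA 2 arrays, against 10.57 and 10.79 on the scramble arrays. The shRNA 2 arrays were the lowest, and both shRNA 1 arrays were above both scramble arrays. TNFRSF10B was 2.54-fold lower with shRNA 2 (-1.34 ± 0.13, adjusted p = 0.0046), a call kept whichever array was left out, and had 0.20 ± 0.13 with shRNA 1 (adjusted p = 0.39). The difference between the shRNAs was 1.54 ± 0.13 (adjusted p = 0.0018). In the mean of both shRNAs it was called at -0.57 (adjusted p = 0.041), but not in any of the 6 fits without an array. The log2 fold changes in these fits were -0.68 to -0.46. No gene was called in the mean without either shRNA 2 array or either scramble array, so those fits say nothing about TNFRSF10B itself. A second, dim probe set (mean 4.14) gave 0.00 with shRNA 2 and 0.035 in the mean. It read an identical 4.12 on both shRNA 2 arrays and both scramble arrays, so it may be too dim to show a fall. DDIT3, the gene of CHOP and a known activator of TNFRSF10B, was at -1.19 with shRNA 1 (adjusted p = 0.071) and at -2.06 with shRNA 2 (adjusted p = 0.010) against scramble, and its part in these values was not tested.

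FAS (chromosome 10), the receptor of FAS ligand, measured 8.28 and 7.96 on the shRNA 1 arrays and 7.05 and 7.00 on the shRNA 2 arrays, against 8.09 and 7.73 on the scramble arrays. It was lowest on the shRNA 2 arrays and overlapped between shRNA 1 and scramble. FAS fell 1.85-fold with shRNA 2 (-0.89 ± 0.18, adjusted p = 0.022) and had 0.21 with shRNA 1 (adjusted p = 0.49), a difference of 1.10 ± 0.18 (adjusted p = 0.0088). The shRNA 2 values of its 3 other tested probe sets were -0.58, -1.06 and -0.59, and none of these passed. Leaving out replicate 1 (adjusted p = 0.112) or 2 (0.113) of shRNA 2, or scramble replicate 1 (0.0911), ended the shRNA 2 call. The difference was not called without replicate 1 (0.0625) or 2 (0.0615) of shRNA 2.

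TNFRSF1A (chromosome 12), the main receptor of TNF, measured 11.38 and 11.82 on the shRNA 1 arrays and 10.26 and 10.86 on the shRNA 2 arrays, against 11.08 and 11.61 on the scramble arrays. The shRNA 2 arrays were the lowest, and replicate 2 read higher than replicate 1 in each group. The shRNAs differed by 1.05 ± 0.30 (adjusted p = 0.044, and 0.0013 with the block), a call that, without the block, ended whichever array was left out (0.0593 to 0.201). Against scramble the value with shRNA 2 was -0.79 ± 0.30 (adjusted p = 0.11, and 0.0038 with the block). TNFRSF10A (DR4), the other TRAIL receptor that signals death, had -0.35 with shRNA 1 and -0.03 with shRNA 2 (adjusted p = 0.15 and 0.88). FADD, the adaptor that ties receptors to CASP8, had 0.01 and 0.10 with shRNA 1 and shRNA 2 and did not pass.

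**Figure D3:**
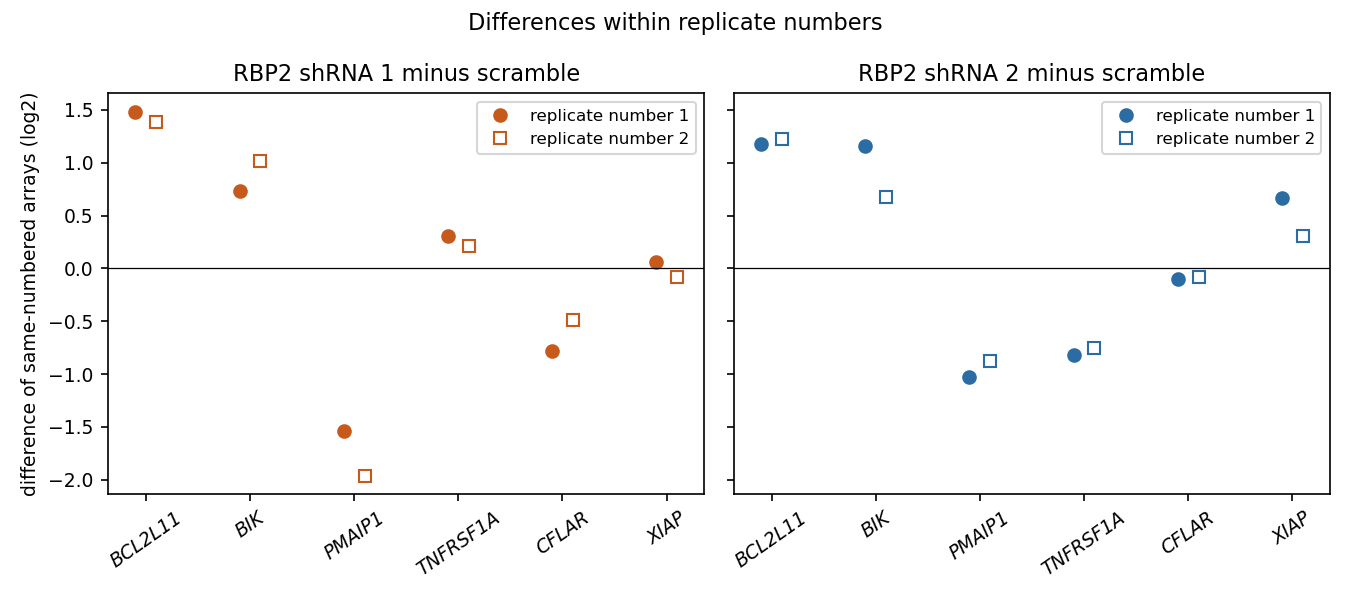
Difference in log2 value between same-numbered arrays (vertical axis) of RBP2 shRNA 1 and scramble (left) and of RBP2 shRNA 2 and scramble (right) for 6 genes called with the replicate block in at least 1 comparison with scramble; circles are replicate number 1 and squares replicate number 2. BCL2L11 had 1.48 and 1.39 with shRNA 1 and 1.18 and 1.22 with shRNA 2, and PMAIP1 was below 0 in all 4 differences. The genes were picked from those with such a call, so agreement within replicate numbers is no further test. Other genes with such a call, HRK and BID among them, are not shown.

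The role groups were set side by side by their medians and counts. The median log2 fold change of all 28 tested members was 0.01 with shRNA 1 and 0.07 with shRNA 2, beside 0.00 and 0.08 for all 10526 genes. The 6 anti-death members, BCL2 proteins and caspase inhibitors together, had medians of -0.05 with shRNA 1 and 0.04 with shRNA 2, with 1 lower in the first and 0 called in the second. The 13 pro-death members had medians of -0.10 and 0.20 with shRNA 1 and shRNA 2. Of these 13, 2 were called lower with shRNA 1, and 1 higher and 1 lower with shRNA 2. The 4 caspases had medians of 0.24 and 0.15, and 1 fell with shRNA 2. The 5 receptor genes, FADD included, had medians of 0.20 with shRNA 1 and -0.79 with shRNA 2, where 2 of 5 fell. These medians rest on few genes. Without probe sets of the _x_at and _s_at kinds, which can match several transcripts, FAS and TNFRSF1A are no longer tested, and the median of the 3 receptor and adaptor genes left was 0.01 with shRNA 1 and -0.03 with shRNA 2. Of all tested genes, 3.62% were called higher and 7.90% lower with shRNA 1, and 16.7% higher and 14.4% lower with shRNA 2.

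Between the shRNAs, the receptor genes had a median difference of 1.05 (shRNA 1 minus shRNA 2), with 3 of 5 higher with shRNA 1, TNFRSF10B, FAS and TNFRSF1A. The anti-death members had a median of -0.41 with 1 of 6 called, the pro-death members -0.05 with 1 higher and 2 lower of 13, and the caspases 0.10 with 1 higher and 1 lower of 4. All tested genes had a median of -0.06, with 17.8% called higher and 23.3% lower. In all, 5 members were higher with shRNA 1 than with shRNA 2 (APAF1, CASP2, TNFRSF10B, FAS and TNFRSF1A) and 4 were lower (BCL2L2, BAD, HRK and CASP9). The mitosis genes differed between the shRNAs as well, with 11 of 12 called higher with shRNA 1 than with shRNA 2 (median 2.79), and their part in the differences of the death genes was not tested. In RNA from a whole culture, fewer cells that express a gene and less RNA per cell cannot be told apart.

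**Figure D4:**
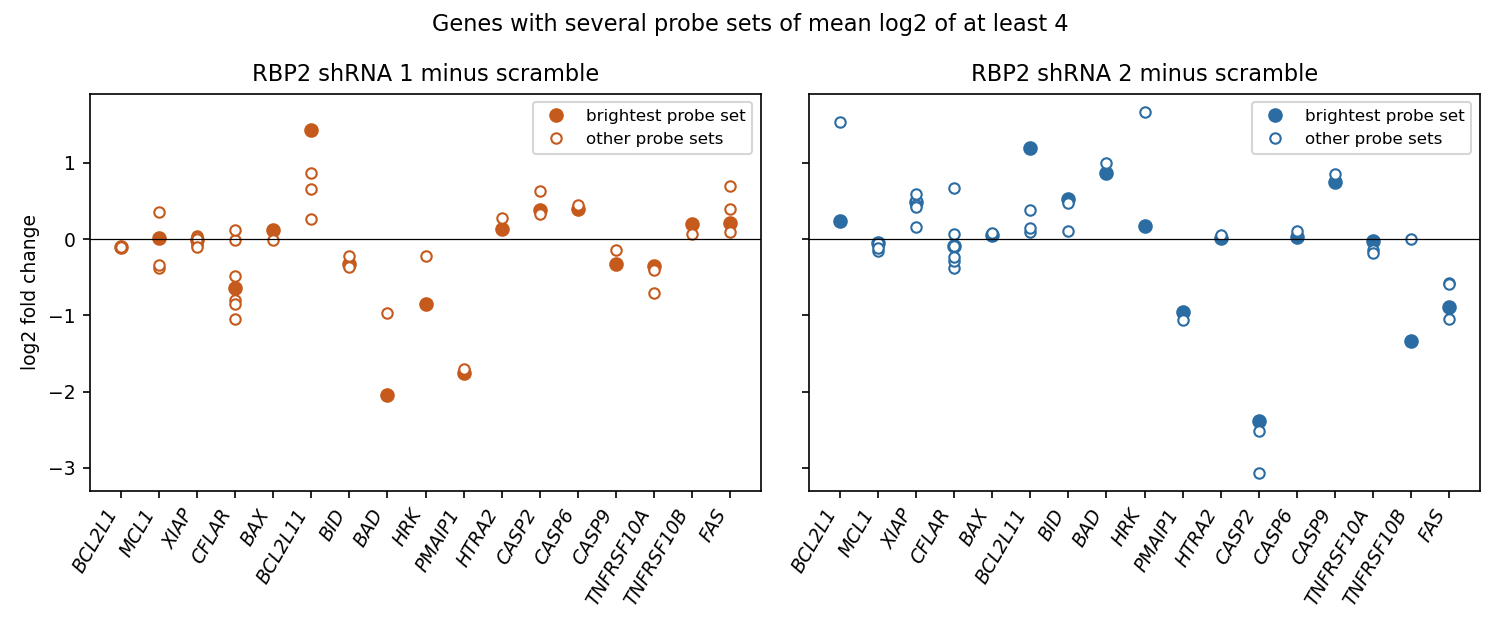
Log2 fold change against scramble (vertical axis) of the brightest probe set (filled) and of every other probe set of mean log2 at least 4 (open) for the 17 genes with more than 1 such probe set, with RBP2 shRNA 1 (left) and RBP2 shRNA 2 (right). Probe sets of CASP2, BAD and PMAIP1 lie on the same side of 0, whereas TNFRSF10B with shRNA 2 has 1 probe set at -1.34 and another at 0.00. The latter is dim and read an identical value on both shRNA 2 arrays and both scramble arrays.

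Other genes of the same routes were counted in the same fit. Of 78 further genes, 74 had a probe set and 61 were tested. One of them, CAD, was listed in error, since that symbol belongs to an enzyme of pyrimidine synthesis. CAD was not called in any comparison, with or without the block, and 60 tested genes are left without it. In the mean of both shRNAs 4 were higher and 4 lower, with shRNA 1 there were 0 higher and 5 lower, and with shRNA 2 there were 8 higher and 10 lower. With the block the counts were 6 and 10 in the mean, 4 and 11 with shRNA 1, and 14 and 14 with shRNA 2, where 34.9%, 29.6% and 50.6% of all genes were called. As a share of the 61, 13.1% were called in the mean comparison, 8.2% with shRNA 1 and 29.5% with shRNA 2, beside 12.5%, 11.5% and 31.0% of all genes. Between the shRNAs 23 of the 61 were called, 9 higher and 14 lower with shRNA 1, or 37.7% beside 41.1% of all genes. With the block 39 differed between the shRNAs, or 63.9% beside 57.7% of all genes.

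Among 13 mitochondrial death factors other than CAD, HAX1, an anti-death protein of mitochondria, measured 8.20 and 8.23 with shRNA 1 and 9.95 and 10.07 with shRNA 2, against 11.11 and 10.92 in scramble cells. No group overlapped another, and HAX1 fell with both shRNAs, by 2.80 on the log2 scale with shRNA 1 (adjusted p = 0.0048) and by 1.01 with shRNA 2 (adjusted p = 0.0064). AIFM1, a flavoprotein released from mitochondria in death, rose with shRNA 2 by 0.98 (adjusted p = 0.0090), and DNM1L, the fission GTPase, fell by 0.58 (adjusted p = 0.017). With shRNA 1, AIFM1 had 0.29 and DNM1L 0.16, and neither passed.

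Of 12 tested caspases and inhibitors outside the 33 genes, BIRC5, or survivin, which serves both caspase control and mitosis, had the largest change. It measured 11.01 and 9.59 with shRNA 1 and 6.81 and 5.64 with shRNA 2, against 10.58 and 9.56 in scramble cells. Both shRNA 2 arrays were far below the rest, and the log2 fold change with shRNA 2 was -3.84 ± 0.67 (adjusted p = 0.014), against 0.23 with shRNA 1. FAIM, an inhibitor of FAS signalling, fell by 0.58 (adjusted p = 0.030) and CARD8, an inflammasome sensor, by 0.51 (adjusted p = 0.048) with shRNA 1, and neither passed with shRNA 2.

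Of 18 tested genes of the receptor route, CYLD, a deubiquitinase of the TNF receptor complex, measured 7.61 and 7.34 with shRNA 1 and 4.37 and 4.47 with shRNA 2, against 6.94 and 6.50 in scramble cells. The 3 groups did not overlap. CYLD fell by 2.30 with shRNA 2 (adjusted p = 0.0036) and had 0.76 with shRNA 1 (adjusted p = 0.069, and 0.027 with the block). TNFRSF10D, a decoy receptor of TRAIL, fell by 1.08 with shRNA 2 (adjusted p = 0.0046), and MLKL, the executor of necroptosis, rose by 1.24 (adjusted p = 0.0079). With shRNA 1, TNFRSF10D had -0.24 and MLKL 0.25, and neither passed. Among 17 tested relatives of BCL2 and their partners, BNIP2 rose by 1.06 with shRNA 2 (adjusted p = 0.012), TMBIM6, or BAX inhibitor 1, fell by 0.40 with shRNA 2 (adjusted p = 0.042), and BAG6, a chaperone cofactor, was lower with shRNA 1 than with shRNA 2 by -0.80 (adjusted p = 0.010).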

How the data were processed

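Values of 6 Affymetrix arrays were used as the authors deposited them. They are log2 values made with GCRMA, per the submitters' processing notes. GCRMA uses probe sequence to correct the background, makes arrays comparable and joins probes into probe sets. It pushes dim probe sets to a floor: per array, 37.7% to 38.7% of values were at 2.24. Of 54675 probe sets, 41091 carried 1 gene symbol in the platform annotation, 1801 several and 11721 none, and 41037 matched RefSeq gene identifiers. 0 pairs of arrays were identical. The 105 probe sets of the members included 63 of mean log2 at least 4.

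Groups came from the sample labels. The fit used limma version 3.58.1 in R version 4.3.3, two-sided, on the brightest probe set of each gene with a mean log2 of at least 4 (10526 genes, 9249 set aside), with 3 residual and 2.09 prior degrees of freedom. The script was tested on simulated data. The median SE was 0.14 for the mean of both shRNAs and 0.17 otherwise. The labels give replicate numbers but do not state that same-numbered arrays were handled together, so the block rests on these data. Deviations of same-numbered arrays correlated at 0.53 between the shRNAs, 0.75 between shRNA 1 and scramble and 0.51 between shRNA 2 and scramble.

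Every member is accounted for, with full values for those called in any comparison. Of the other genes of these routes, the 3 with the smallest adjusted p of each list are named. The members and lists were chosen with earlier results of these data known. Alternatives were the block, no filter and a minimum of 6, the mean of all probe sets, probe sets without _x_at and _s_at, other probe sets, centring, quantile normalization, a variance trend, no tied floor values and leaving out each array. Promoter windows came from a RefSeq table. No whole genome or protein table was used here.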

Additional observations from a re-analysis of the deposited data

Results flagged for a closer look

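For 9 genes the effect of the shRNAs differed when tested directly, as RBP2 shRNA 1 minus RBP2 shRNA 2 in limma. The log2 differences below 0 were -2.91 for BAD, -2.17 for BCL2L2, -1.07 for CASP9 and -1.02 for HRK. Those above 0 were 2.76 for CASP2, 1.54 for TNFRSF10B, 1.37 for APAF1, 1.10 for FAS and 1.05 for TNFRSF1A. Across all tested genes 41.1% differed between the shRNAs in the same test. Groups of 2 arrays are too small to single out an array within a group.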

How the results depend on the processing

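Counts of called members moved most with the replicate block and with the number of arrays. In the mean of both shRNAs, 4 members became 9 with the block, and 2 without the filter on brightness (APAF1, and DIABLO as a new call), with the mean of all probe sets or without _x_at and _s_at probe sets. With shRNA 1, 3 became 7 with the block, and with shRNA 2, 5 became 11. Between the shRNAs, 9 became 14 with the block and 5 with no filter. Leaving out each array in turn gave 0 to 3 members for the mean, 0 to 2 for shRNA 1, 2 to 6 for shRNA 2 and 5 to 9 between the shRNAs. The fits without an array have fewer residual degrees of freedom, so a call can end in them for that reason alone. With shRNA 1, no gene kept its call without either scramble array. In the mean comparison limma then called 0 of all tested genes without either shRNA 2 array or either scramble array, where 2247 to 2818 genes had an unadjusted p under 0.05.

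Of the other genes of these routes, 8 were called in the mean (block 16, no filter 3, leaving out an array 0 to 2), 5 with shRNA 1 (block 15, no filter 2, without _x_at and _s_at probe sets 3, leaving out an array 0 to 1), 18 with shRNA 2 (block 28, no filter 8, leaving out an array 3 to 16) and 23 between the shRNAs (block 39, no filter 9, leaving out an array 8 to 21). For called members, 72 of 126 values without an array stayed past the threshold and 54 did not, and 165 of 180 values under the other settings did. With another probe set 13 of 20 stayed, 6 did not, and 1 turned its sign, TNFRSF10B in the mean of both shRNAs (0.035, adjusted p = 0.85). That probe set was dim and read an identical value on both shRNA 2 arrays and both scramble arrays. Outside the block, other calls of members came under 1 to 4 settings each for DIABLO, BAD and CASP2 in the mean, for DIABLO, BCL2L1, CASP9, HRK and PMAIP1 with shRNA 2, and for BCL2L1, CFLAR, MCL1, XIAP and PMAIP1 between the shRNAs (adjusted p 0.00623 to 0.0498). In the mean, centring the arrays gave TNFRSF10B -0.53 (adjusted p = 0.0525). Group medians moved in 30 of 240 values. Without _x_at and _s_at probe sets 1 caspase was left, CASP2, -1.00 in the mean, -2.38 with shRNA 2 and 2.76 between the shRNAs. The receptor median between the shRNAs, over 3 genes, was then -0.09, and quantile normalization gave a pro-death median of 0.07 with shRNA 1. Centring shifted the median of all genes to 0.12 with shRNA 2. With 2 arrays a group, signal near the floor limits BCL2, BCL2A1 and CASP10.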
